A study of Arabidopsis thaliana with 7 samples.

Results

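The beta-glucosidase genes described here are the 40 protein-coding genes of Arabidopsis thaliana whose symbol is BGLU followed by a number, out of 27444 protein-coding genes on the 5 nuclear chromosomes. They were taken by symbol from the RefSeq gene table of assembly TAIR10.1. The family was picked for description because few of its members carried a peak in the ChIP-seq list analysed here, so the counts of members with a peak describe that choice and were given no test. ChIP-seq, which sequences the DNA crosslinked to a precipitated protein, was run on seedlings at day 12 in 7 samples. Untransformed Col-0 gave 3 of these samples, and the ZF-DDR4 and ZF-DDR5 fusion plants gave 2 each. The mark g3 stands in the titles of 1 Col-0 sample and of both ZF-DDR5 samples. The first ZF-DDR5 replicate is the source of the peaks used throughout. The ZF-DDR5 seedlings carry DDR5, a DDT-domain protein, fused to an engineered zinc finger. The labels used here state neither the promoter that drives the fusion nor how many independent lines stand behind this sample, and they list no antibody for it. Their shared protocol text, written for homozygous T3 lines of a DDR4 fusion, describes an anti-FLAG precipitation. Lists of the other samples were not analysed here, so no value has a replicate error and none is set against Col-0. The list held 9999 peaks with a median width of 484 bp (279 to 1981 bp), without score or read count, and its depth is unknown.

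BGLU enzymes belong to glycoside hydrolase family GH1. They cleave a terminal glucose from small molecules that plants store as glucosides, and so release hormones, defence compounds, coumarins, lignin precursors or flavonoids from an inactive form. A pair of glutamate residues carries out the cut in most of them, while some relatives transfer the sugar to another molecule instead. Several of the enzymes are known from roots and from ER bodies, which are rod-shaped compartments of the endoplasmic reticulum in Brassicaceae. Many of the genes arose by local duplication and lie side by side. How alike the copies are in sequence, and how reads that match several copies were placed, was not analysed here, so the lack of a peak at any single member is uncertain.

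A peak was centred inside 3 of the 40 BGLU genes, namely BGLU6, BGLU7 and BGLU25. That is 7.5% of the family (Wilson 95% interval 2.58% to 19.9%, which covers counting error only), against 26.9% of all protein-coding genes. The members are longer than the average gene, with a median of 3155 bp (1521 to 4942 bp), and long genes held peaks more often. Each member was therefore set beside the genes of its own length bin, 1 of 20 bins of 1372 or 1373 genes. The shares in those bins sum to 13.8 genes with a peak, or 34.4%, and the observed count was 0.218 of that. Each of the 3 genes held 1 centre, and the other 37 held 0.

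Widening each gene by 1000 bp on either side added no member. The count stayed at 3 of 40, against 36.5% of all protein-coding genes and 17.4 members (43.5%) by the length bins, a ratio of 0.173. A centre in the flanks but not in the body was thus found at 0 BGLU genes, and at 9.6% of all protein-coding genes. Just outside the limit lay BGLU47, whose nearest peak centre was 1226 bp away. BGLU5 followed at 1495 bp, BGLU8 at 1511 bp, BGLU4 at 1651 bp and BGLU11 at 1663 bp. The nearest centres of BGLU5 and BGLU8 were those inside their adjacent relatives BGLU6 and BGLU7. BGLU47 lay next to ATML1, an epidermal homeodomain gene of the same class as FWA, which held the centre of a peak of 1492 bp. For BGLU11 the nearest centre lay in SR34, a splicing factor gene.

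The 3 peaks in BGLU genes were of more than median width and lay in the middle of the gene. BGLU6, known as an enzyme that adds glucose to flavonol glycosides, held a peak of 663 bp at chromosome 1, 22222597 to 22223259 (TAIR10). Its centre lay 1353 bp from the gene's edge of lower coordinate and 1430 bp from the other edge, at 48.6% of the gene's length. BGLU7 held the widest of the 3, of 843 bp, at chromosome 3, 23212315 to 23213157, centred at 52.1% of the length. It covered 30.3% of the gene, and its width ranked 1601 of the 9999 peaks. In BGLU25 the peak was 664 bp wide, at chromosome 3, 882126 to 882789, centred at 46.3% of the length. The centres were 1330 to 1469 bp from the nearest gene edge. Among all 5065 centres inside protein-coding genes of the members' length bins, 18.4% lay between 40% and 60% of the gene's length. Strand, exons and UTRs of the genes were not analysed here, so which edge is the transcription start was not read.

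The distance to the nearest peak is a graded view of the readout by which the family was picked, so it is no separate result. It was longer for these genes than for genes of like length. The median distance from a BGLU gene to its nearest peak centre was 5630.5 bp (quartiles 2519 and 10036 bp, range 0 to 22332 bp, n = 40 genes), against 1642 bp in genes of like length and 2345 bp in all protein-coding genes. Within 2000 bp there was a centre for 9 members (22.5%), against 53.4% of genes of like length. Within 5000 bp there was one for 19 (47.5%), against 72.4%. Beyond 10000 bp lay 11 members (27.5%), against 11.9%. Of the 40 members, 32 lay farther from a centre than the median gene of their length bin. As far as or farther than 95% of their bin lay 4 members, a cut that by its definition about 95% of all genes stay below. They were BGLU10 and, from a single array on chromosome 2, BGLU15, BGLU28 and BGLU29.

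**Figure D1:**
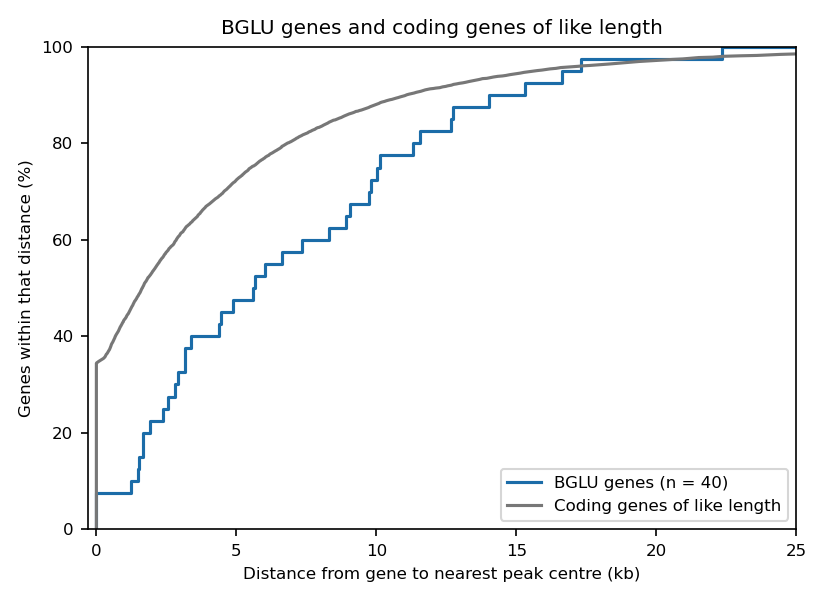
Cumulative share of genes (y axis, %) against the distance in kb from the gene to its nearest ZF-DDR5 peak centre (x axis), for the 40 BGLU genes (blue steps) and for protein-coding genes weighted to the same length bins (grey). The BGLU line starts at 7.5% where the grey line starts at 34.4%, and it stays below the grey line up to the step at BGLU15. From the step at BGLU29 onward the lines lie close together and cross.

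**Figure D2:**
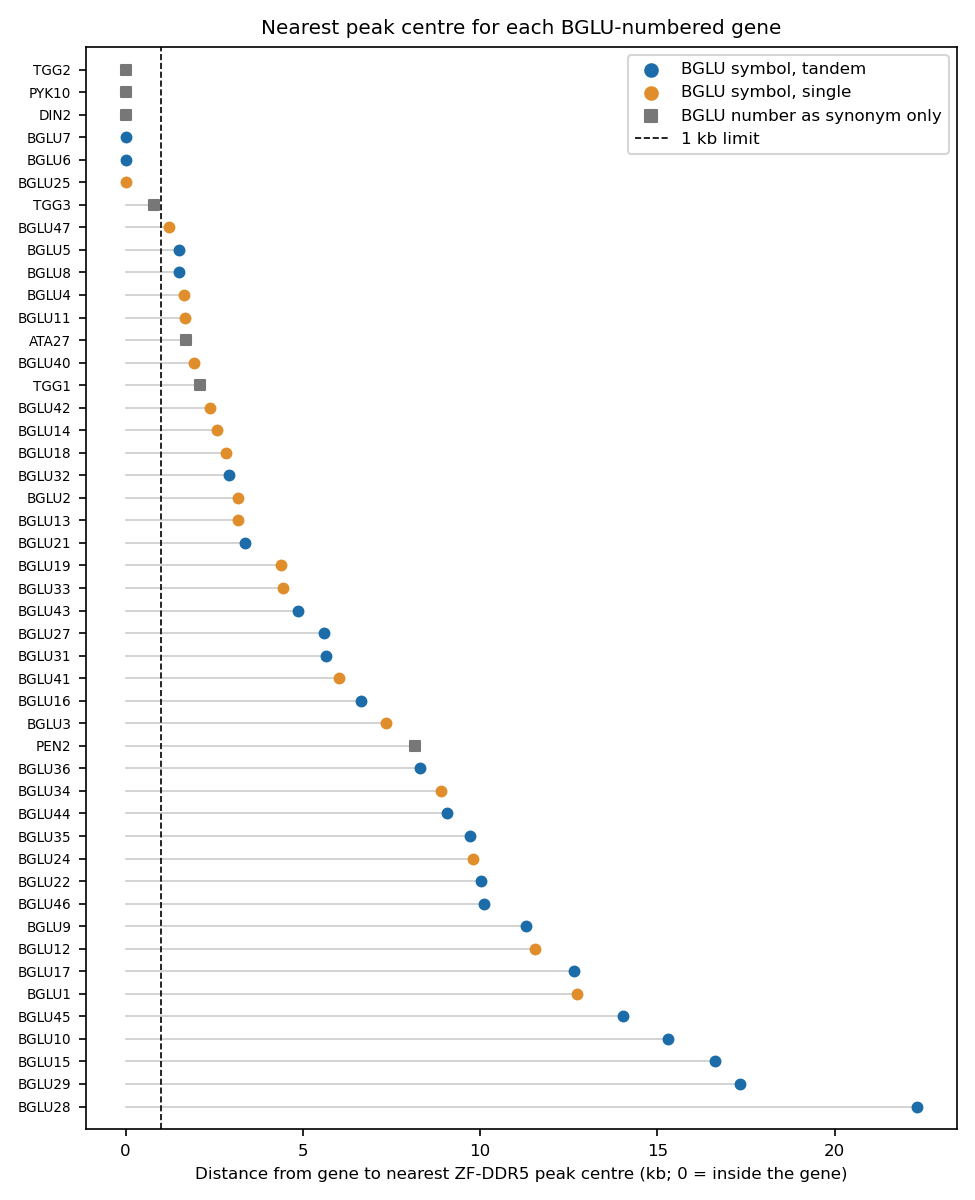
Distance in kb from each of the 47 genes with a BGLU number to its nearest peak centre (0 means a centre inside the gene), with tandem members in blue, single members in orange, and genes that carry the number only as a synonym as grey squares. No BGLU-symbol gene lies between 0 and the dashed 1 kb line, and the farthest 3 are BGLU15, BGLU29 and BGLU28.

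The genes next to the family were not poor in peaks. For each member the 5 nearest protein-coding genes on either side without a BGLU number were taken, 281 different genes in all. Of these, 78 (27.8%, Wilson 95% interval 22.8% to 33.3%) had a centre in the body, against 76.8 by their length bins, a ratio of 1.02. Neighbours were not chosen by their own peaks. Their median distance to a centre was 2476 bp. A member had a median of 2 such neighbours with a peak, from 0 around BGLU3 to 6 around BGLU4, BGLU5 and BGLU6. Of the 37 members without a peak, 33 had their nearest centre in a protein-coding gene, 2 in a non-coding RNA or pseudogene locus and 2 in no gene. In 3 of the 33 cases that gene was another one with a BGLU number. For the 9999 peaks, the bodies of all protein-coding genes held 8626 centres, counted again where genes overlap. The share for other genes without a peak was not computed.

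Tandem members were those with at most 1 other protein-coding gene between them and the next BGLU gene. This gave 22 members in 10 arrays and 18 single genes. Of the tandem members, 2 had a peak centre in the body (9.09%, Wilson 95% interval 2.53% to 27.8%), against 7.90 by their length bins. Of the single members, 1 did (5.56%, 0.988% to 25.8%), against 5.87. The ratios were 0.253 and 0.170, and the intervals overlapped over most of their length. With the genes that carry a BGLU number as a synonym counted in, the shares nearly met and their order turned round. A centre was found in 3 of 24 tandem genes (12.5%) against 8.71 by length, and in 3 of 23 single genes (13.0%) against 7.56. TGG1 and TGG2 counted as single genes here, although they lie close together, so the order rests on how tandem was defined. Members of an array share their position, so the loci were counted as well. A centre lay within 2 of the 10 arrays and in 1 of the 18 single genes. The arrays were longer, with a median span of 8333.5 bp against 3048 bp for the single genes. No share for spans of like length was computed, so the 2 counts cannot be compared.

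Distances differed more than counts between tandem and single members. The median distance to the nearest centre was 8688 bp for the 22 tandem genes and 3163 bp for the 18 single genes. A gene inside an array is flanked by relatives that mostly lack a peak. Measured from the outer edges of each array, the median was 5231.5 bp for the 10 arrays, with a median span of 8333.5 bp. Arrays and single genes overlapped widely, up to 12652 bp for the arrays and 12737 bp for the single genes.

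In both arrays with a peak, 1 of the pair held it. BGLU5 and BGLU6 lie 141 bp apart on chromosome 1, and the centre was in BGLU6. BGLU7 and BGLU8 lie 180 bp apart on chromosome 3, and the centre was in BGLU7. In neither pair did the peak reach the other gene, since the same 3 members were the only ones overlapped by a peak by at least 1 bp, against 28.2% of all protein-coding genes. These are the 2 most closely spaced pairs of the 10 arrays. The next, BGLU45 and BGLU46 at 349 bp, had no centre within 10 kb of either gene.

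Of the 10 arrays taken by symbol, the longest was the farthest from any peak. BGLU15, BGLU28, BGLU29 and BGLU17 follow each other on chromosome 2 over 22745 bp, and PEN2, which carries the number BGLU26 as a synonym, comes next. The nearest centres lay 16628 bp from BGLU15, 22332 bp from BGLU28, 17319 bp from BGLU29, 12652 bp from BGLU17 and 8163 bp from PEN2. All 5 genes fell in a single gap of 52024 bp between peak centres, which ranked 220 in length among the 9994 gaps of the list and held 11 protein-coding genes. By their length bins, 1.63 of the 4 BGLU genes would carry a peak. With PEN2 counted in, the array came as near as 8163 bp to a centre. The pairs BGLU9 and BGLU10 (11293 bp), BGLU45 and BGLU46 (10114 bp) and BGLU35 and BGLU36 (8315 bp) were then farther. A gene without a peak is more likely to lie in a long gap than in a short one, so gaps were set beside other genes without a peak. The 37 BGLU genes without a peak fell in only 27 different gaps. Each gap was counted once per gene, so gaps around arrays weigh more in the family's median. That median was 28160 bp for the 37 BGLU genes, and 22371 bp for genes of like length without a peak. This difference is smaller than that of the shares with a peak.

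**Figure D3:**
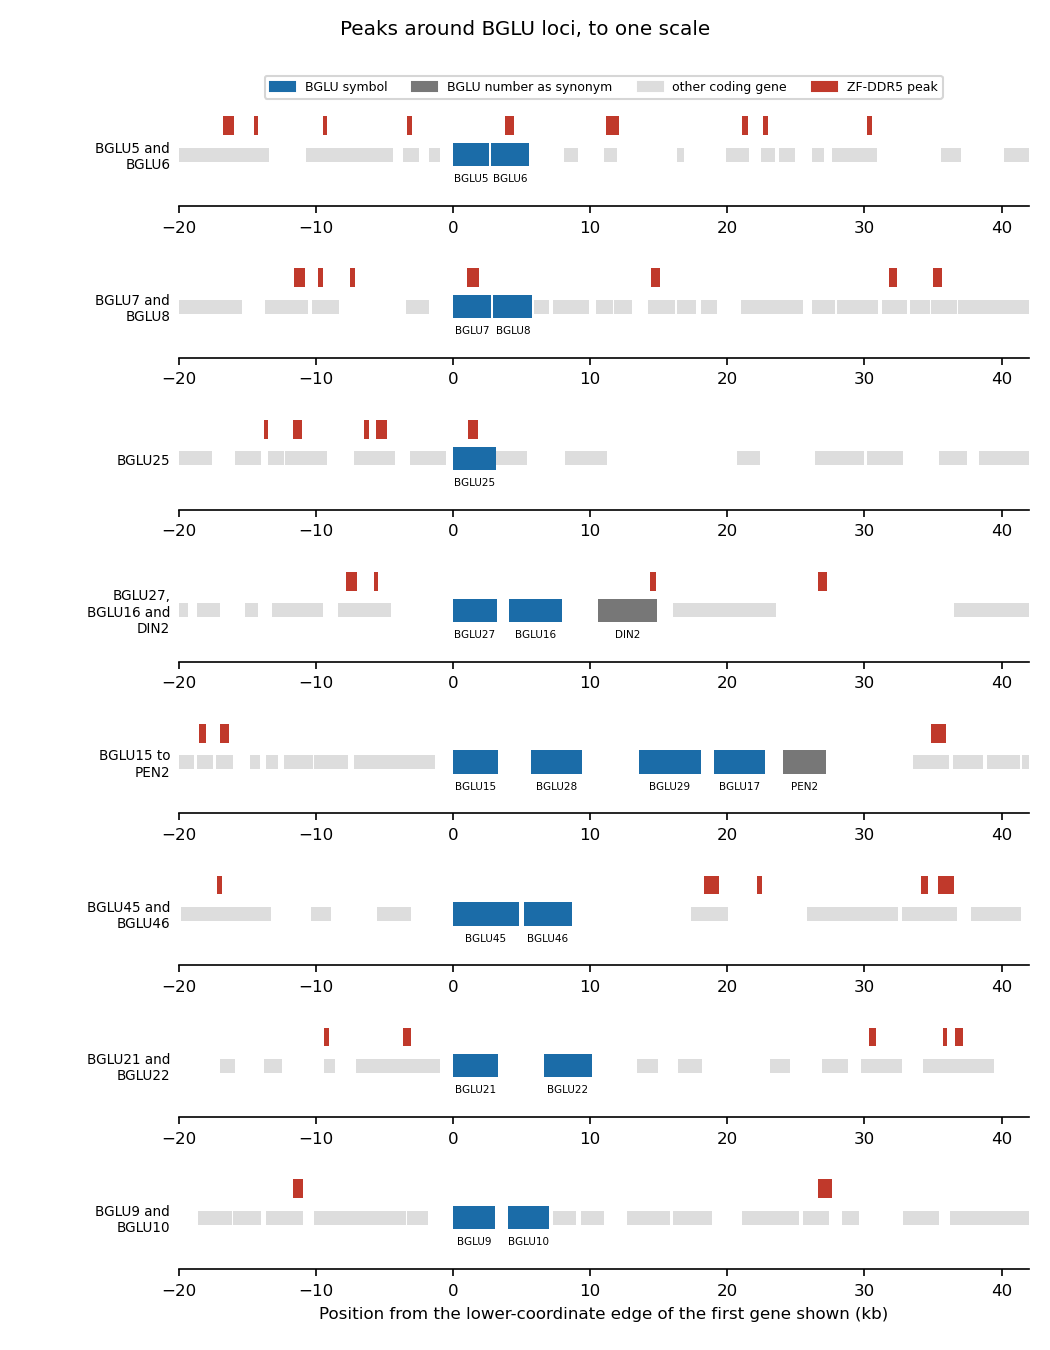
Maps of 8 loci on a common scale, in kb from the lower-coordinate edge of the first gene shown, with BGLU genes in blue, genes with a BGLU number as a synonym in dark grey, other protein-coding genes in light grey and ZF-DDR5 peaks as red bars above them. A red bar stands over BGLU6, BGLU7, BGLU25 and DIN2, while BGLU15 to PEN2 lie in a gap of 52024 bp between peak centres.

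Grouped by what the enzymes are known to do, BGLU genes without a peak were found in each class. Relatives of these classes that carry the number only as a synonym, with peaks in PYK10, TGG2 and DIN2, are described further on. BGLU18 and BGLU33 free the hormone abscisic acid from its glucose ester, and their nearest centres were 2824 bp and 4449 bp away. BGLU45, BGLU46 and BGLU47 act on the glucosides of monolignols, the building blocks of lignin. They lay 14021, 10114 and 1226 bp from a centre, so the class spanned most of the range seen in the family. BGLU21 and BGLU22, adjacent genes for ER body enzymes that cleave the coumarin glucoside scopolin, lay 3366 bp and 10010 bp away. BGLU42, known for a part in root-triggered systemic immunity, is the longest member at 4942 bp. In its length bin 45.4% of the genes had a peak, yet its nearest centre was 2376 bp off.

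With those relatives included, a peak was found in 1 of 3 ER body enzymes of root and hypocotyl (PYK10) and 1 of 4 classical myrosinases (TGG2). It was found in 1 of 3 atypical glucosinolate hydrolases (DIN2) and 1 of 3 enzymes of flavonoid glycosides (BGLU6). In the length bins of these genes, from 31.3% (BGLU6) to 45.4% (DIN2) of all protein-coding genes had a peak. Classes of 3 or 4 genes therefore cannot show a low or a high share. BGLU34 and BGLU35, the root myrosinases TGG4 and TGG5 that cleave glucosinolates, lay 8906 bp and 9726 bp from a centre. BGLU28, an enzyme of glucosinolate breakdown under sulphur shortage, was the farthest member of all. BGLU10, which glucosylates anthocyanins, lay 15292 bp from a centre, and BGLU15, a flavonol bisglucoside hydrolase, 16628 bp. BGLU44, whose enzyme favours mannosides, was 9061 bp away and its neighbour BGLU43 4867 bp. BGLU40 was 1915 bp from a centre in UGD1, a gene for UDP-glucose dehydrogenase.

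The other members, named here without a role, covered the same range. On chromosome 1, BGLU1 lay 12737 bp from a centre and BGLU36, the array partner of BGLU35, 8315 bp. On chromosome 2, BGLU14 lay 2567 bp away, and on chromosome 3 BGLU19 lay 4380 bp away. On chromosome 4 the distances were 7351 bp for BGLU3 and 11293 bp for BGLU9, the neighbour of BGLU10. BGLU9 and BGLU10 thus formed a second pair with no centre within 10 kb of either gene. On chromosome 5, BGLU2 (3159 bp), BGLU13 (3167 bp), BGLU41 (6027 bp), BGLU24 (9811 bp) and BGLU12 (11546 bp) were single genes, and BGLU31 (5665 bp) and BGLU32 (2923 bp) a pair. The centre nearest to BGLU31 lay in DMR6, a salicylic acid hydroxylase gene of downy mildew susceptibility. Over the whole family, 11 of the 40 genes had 0 centres within 10 kb and the highest number was 5, around BGLU4.

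Genes that carry a BGLU number only as a synonym gave another count. There were 7 of them, and 3 had a centre in the body, against 2.49 by their length bins, beside the 3 of 40 with the symbol. The shares are set side by side without a test. PYK10 (BGLU23), the main ER body enzyme of roots, held a peak of 394 bp at chromosome 3, 2841199 to 2841592. TGG2 (BGLU37), a myrosinase of shoots, held one of 1172 bp at chromosome 5, 9073838 to 9075009, centred at 55.9% of its length. DIN2 (BGLU30), induced by darkness, held one of 387 bp at chromosome 3, 22220329 to 22220715. That centre lay 302 bp from a gene edge, unlike the centres in the BGLU-symbol genes. TGG3 (BGLU39) had a centre 798 bp beyond its edge, in BIR1, a receptor kinase gene. The other 3 were ATA27 (BGLU20), an anther gene, at 1699 bp, TGG1 (BGLU38) at 2090 bp and PEN2, a myrosinase of pathogen defence, at 8163 bp. Over all 47 genes with a BGLU number, 6 had a centre in the body (12.8%, Wilson 95% interval 5.98% to 25.2%) against 16.3 by length, a ratio of 0.369. The low share of the family is thus smaller in size when all 47 numbers are counted. With 7 genes, the share of 42.9% has a Wilson 95% interval of 15.8% to 75.0%.

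DIN2 follows BGLU27 and BGLU16 on chromosome 3. Of these neighbours only DIN2 held a centre, and BGLU27 and BGLU16 lay 5596 bp and 6640 bp from one. For BGLU16 the nearest centre was the one in DIN2. TGG1 and TGG2 also lie close together on chromosome 5, and the centre was in TGG2.

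Other genes of the myrosinase and ER body system were counted from a fixed list. Of 14 genes, 4 had a centre in the body, against 4.72 by their length bins, or 28.6% of the list. All 4 were nitrile specifier genes, whose products steer glucosinolate breakdown to nitriles. NSP1, NSP3 and NSP4 carry consecutive locus numbers on chromosome 3, so these are not 4 separate positions. NSP1 held a peak of 918 bp, NSP2 one of 1260 bp, NSP3 one of 635 bp and NSP4 one of 299 bp, and NSP5 lay 8064 bp from a centre. The ER body genes of this list, which leaves out PYK10 with its peak, had 0. They were the transcription factor gene NAI1 (2200 bp), NAI2 (6556 bp), TSA1 (8438 bp), PBP1 (5123 bp), MEB1 (8275 bp) and MEB2 (1981 bp). In their length bins 22.6% (PBP1) to 45.4% (NAI2 and TSA1) of genes had a peak, so these few genes cannot show a low share. ESP, the epithiospecifier gene, lay 16994 bp away, ESM1 5505 bp and the transporter gene PEN3 7423 bp. A separate GH1 gene without a BGLU number in the table, SFR2, which remodels chloroplast lipids in freezing, held a peak of 391 bp.

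In the other enzyme families set beside it, whose tandem copies were not counted here, the shares were not alike. Serine carboxypeptidase-like genes (SCPL symbols) had a centre in the body in 8 of 49 cases (16.3%) against 17.0 by length, a ratio of 0.472. UDP-glycosyltransferase genes (UGT symbols), whose enzymes add the sugars that beta-glucosidases remove, had one in 15 of 58 cases (25.9%) against 14.4, a ratio of 1.04. Genes with CYP symbols had one in 83 of 229 cases against 62.6. The ratios are set side by side without a test, since the BGLU family was chosen for its low value.

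**Figure D4:**
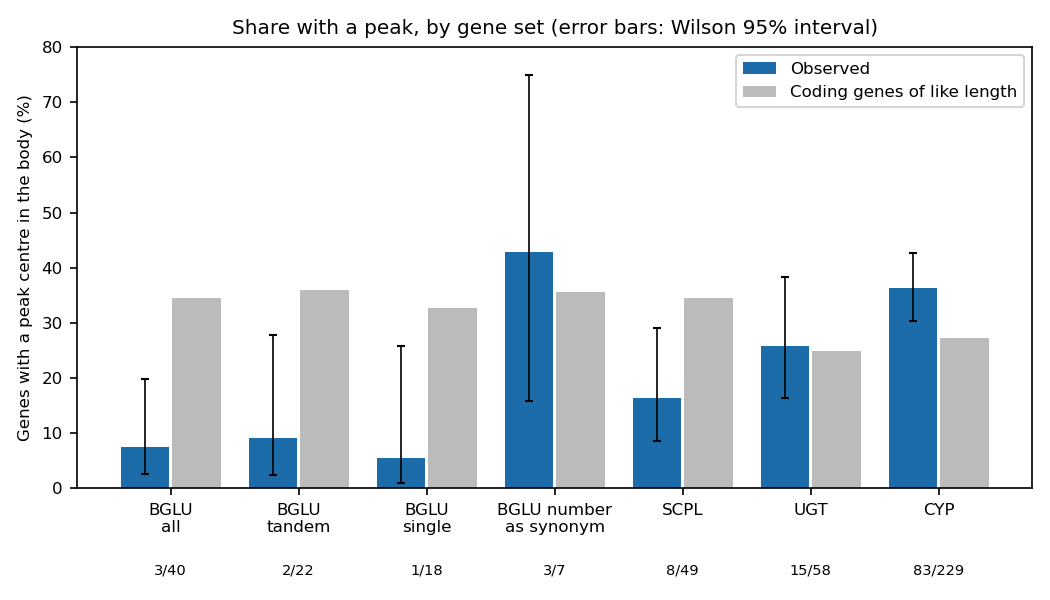
Share of genes with a ZF-DDR5 peak centre in the body (blue bars, %, with Wilson 95% intervals for counting error) beside the share in protein-coding genes of like length (grey bars), with counts under the axis. BGLU genes reach 7.5% beside 34.4%, and both tandem and single members lie below their grey bars, while UGT genes reach 25.9% beside 24.9%.

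Split by chromosome and by length, the members come to few genes in each class. On chromosome 1 a centre was found in 1 of 14 members against 4.96 by length, and on chromosome 3, with BGLU7 and BGLU25, in 2 of 8 against 2.78, which is within 1 gene. On chromosomes 2, 4 and 5 it was found in 0 of 6 against 2.24, 0 of 4 against 1.30 and 0 of 8 against 2.49. Of the 4 members under 2000 bp, BGLU2, BGLU12, BGLU13 and BGLU14, 0 had a centre, against 0.853 by their length bins. Of the 11 members of 2000 to 3000 bp, 2 had a centre, against 29.5% of all protein-coding genes of that length. Of the 22 of 3000 to 4000 bp, 1 did, against 8.06, and of the 3 of 4000 bp or more, 0 did, against 1.36. Classes in which about 1 gene would carry a peak cannot show a low share. Of the 40 members, 39 lay outside gene-poor 500 kb windows, the exception being BGLU24. Most genes do, with 26271 of all 27444 protein-coding genes outside such windows.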

How the data were processed

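ChIP-seq peaks of 1 sample, ZF-DDR5 replicate 1, were used. Per the submitters' processing notes, fastp 0.20.1, Bowtie2 2.4.2, SAMtools, Picard 2.25.6, deepTools 3.5.1 and the build TAIR10 were used. The sources used here do not give the peak caller, its threshold, its control or any pooling of replicates. The deposited list holds starts and ends in base pairs, counted from 0, with no other measured value. Coordinates are printed counted from 1. Peak centres were matched to the RefSeq gene table of TAIR10.1, whose gene coordinates are not printed because its assembly name differs. Moving the peaks by 50 bp either way left the count of members unchanged. Genes of like length are those in the same 1 of 20 equal length bins. A 500 kb window was called gene-poor if it held under 50% of the median protein-coding gene count per window. No test was run, since 1 list has no replicate and the peaks chose the family. Genes named are members with a peak, the nearest and farthest without one, array partners and enzymes of known role. Members, lists and the rule were chosen with earlier results of these data known. Counting was tested on simulated data. Python 3.11.15, pandas 2.3.3 and statsmodels 0.14.6 were used.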

Additional observations from a re-analysis of the deposited data

How the results depend on the processing

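Of 41 alternatives, 38 left the value within 1.5 times for counts, or within the main value's 95% interval for ratios, shares and the median. The 3 that moved were counts. Taking synonyms as members raised the count in the gene body from 3 of 40 to 6 of 47, and with the flank from 3 to 7. A 2000 bp flank gave 9 members against 21.3 by length. With synonyms the share of single members rose from 5.56% to 13.0%, above that of tandem members, which went from 9.09% to 12.5%. The ratio to genes of like length lay between 0.211 and 0.381 for the body and between 0.170 and 0.422 with the flank. The main interval of the body ratio, 0.0750 to 0.577, is wide. With synonyms that ratio went from 0.218 to 0.369 and still counted as unchanged. Many settings were scored both as a count and as a ratio, so the 41 alternatives are not separate checks. With 3 or 10 neighbours on each side in place of 5, chosen after seeing the data, 32.0% and 27.5% of the neighbours had a peak. Without scores no stricter peak threshold could be set; the wider 50% of the peaks stood in for it. Depth is unknown. No paired analysis was possible because only 1 peak list was analysed, and no replicate could be left out.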

Other observations

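Of the 16 BGLU genes with a single RefSeq transcript, 1 had a peak centre in the body, against 4.99 by their length bins, and of the 24 with more than 1 transcript, 2 did, against 8.78. Among the 60 groups of at least 20 protein-coding genes that share a symbol stem, the BGLU ratio of 0.218 was the third lowest. The stem AT, shared by 17077 genes, is among them, so not every such group is a gene family. Below BGLU were the small cysteine-rich peptide genes SCRL, with 0 of 27 against 2.54, and LCR, with 1 of 80 against 7.63. Next above BGLU came the stem GH, with 3 of 26 against 8.43, a ratio of 0.356. These are descriptions of a single list, and the family was chosen with its low count known.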
